A study of Mus musculus with 52 samples.

Results

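Lefty1, Lefty2, Dand5 and Gdf3, secreted ligands and inhibitors of the Nodal pathway, were followed across 7 mouse embryonic stem (ES) cell lines. They were taken by the gene symbol of the platform annotation, which gave 5 probes of 20794 and 4 genes of 9030 named ones. The genes were chosen by their ratios on these same arrays, chiefly those of Lefty2, so their values are given as a description, without p-values. Lefty2 differed by more than 1 log2 unit in 8 of 13 direct comparisons of lines, whereas Gdf3 stayed within 0.80 log2 units in all 13. Of the other members, Lefty1 was measured by a pair of probes that spread differently, and Dand5 had 1 comparison past the threshold used.

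Nodal is a secreted protein of the TGF-beta superfamily. It acts through activin-type receptors with an EGF-CFC co-receptor, and the signal is carried by Smad2 and Smad3 with Smad4 and by the DNA-binding partner Foxh1. Lefty1 and Lefty2 are secreted antagonists that are themselves induced by Nodal signalling, which makes a negative feedback loop. In mouse ES cells this pathway is active without added ligand, and Lefty genes are among its known responsive genes. Dand5, also called Cerl2, is a secreted antagonist that binds Nodal and is known for its role in left-right patterning at the node. Gdf3 is a ligand related to Vg1 that can act through the same receptors and co-receptor as Nodal and is abundant in undifferentiated ES cells.

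RNA of 2 lines was hybridised together on each of 52 two-colour cDNA arrays, with 4 arrays for each of 13 comparisons. The lines were HM-1 NT, B6NT, PDCUMNT, ZFCUMNT, B6PGA, #4 (B6) and HM-1. The series description states that they differ in the donor of their nuclei, and that cumulus cells gave a pair of lines made by different cloning methods, without naming the pair. HM-1 is an established mouse ES line known from gene targeting. The abbreviations NT, B6, PGA, PD and ZF are not spelled out in the labels. Strain, passage, culture conditions and the use of feeder cells are not given in the sources used here, and no treatment is named. The number of clones or cultures behind a line is likewise not given. The labels do not say whether the 4 arrays of a comparison used separate RNA extracts, so the errors below measure the spread between arrays, which may be technical. Within a comparison, the second-named line was labelled with Cy5 on arrays 1 and 2 and with Cy3 on arrays 3 and 4.

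Values below are log2 ratios of the second-named over the first-named line, written as "second minus first". Ratios were turned by the channel labels, reading the deposited ratio as Cy5 over Cy3, and log2 is likewise a reading from the range of the values. Should the authors have put Cy3 over Cy5 instead, every sign below and every order of lines turns round at once, while the sizes stay. Fitted values come from limma over all 52 arrays with a dye term, given with the standard error (SE), and "past the threshold" means a Benjamini-Hochberg adjusted p under 0.05 over all features tested in that comparison. The arrays held 17620 to 20200 measured probes each, and their medians ran from -0.21 to 0.47. Because each value is a ratio, it gives no level in 1 line alone, and the ES identity of a line cannot be checked against the level of its markers.

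Before the results, 3 comparisons need a remark on their arrays. After turning, arrays of opposite dye orientation should carry like values, yet their mean rank correlation over all features was -0.49 in #4 (B6) minus HM-1, -0.22 in HM-1 NT minus HM-1 and -0.16 in ZFCUMNT minus HM-1 NT. In the other 10 comparisons it ran from -0.10 to 0.01. Arrays of the same orientation correlated at 0.59, 0.43 and 0.11 in the 3 comparisons named. Wrong dye labels and a dye effect of single probes cannot be told apart by these values. The dye labels of the first 2, with the lowest correlations between orientations, are treated as in doubt. The step between the high and low Lefty2 line levels is given below with and without these 2 comparisons.

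Lefty2 (Entrez gene 320202, chromosome 1) was measured by 1 probe on all 52 arrays. The widest differences set ZFCUMNT against B6NT and HM-1. In ZFCUMNT minus B6NT the 4 arrays read -2.54, -2.45, -2.69 and -2.93, and the fitted value was -2.65 ± 0.25 (SE, n = 4), a 6.29-fold difference. This was the second lowest value of the 16108 features tested there, with 0.124% of features called. In ZFCUMNT minus HM-1 the arrays read -2.24, -2.69, -2.72 and -2.40, with a fitted value of -2.51 ± 0.25 (n = 4), and 0.101% of features were called. Both dye orientations gave the same sign and a similar size in these comparisons, and no array came near 0.

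PDCUMNT, whose name shares the letters CUMNT with ZFCUMNT, differed from HM-1 in the same direction. Its 4 arrays against HM-1 read -1.85, -1.90, -1.96 and -1.92, a spread of only 0.05 (SD), and the fitted value was -1.91 ± 0.25, where 1.14% of features were called. Between the CUMNT-named lines, in ZFCUMNT minus PDCUMNT, Lefty2 read 0.02, 0.08, 0.11 and -1.17. Array 4 lay far below the other 3, and the fitted value of -0.24 ± 0.25 did not pass the threshold.

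B6NT and B6PGA both differed from #4 (B6) with a positive sign. In B6NT minus #4 (B6) the arrays read 2.41, 2.32, 1.95 and 2.31 with a fitted value of 2.25 ± 0.25, a 4.75-fold difference, and 0.245% of features were called. In B6PGA minus #4 (B6) they read 2.13, 1.64, 1.96 and 1.25 with a fitted value of 1.74 ± 0.25, and 1.22% of features were called. All 8 arrays were above 1.2, and the B6NT value ranked 14 from the highest of the 15914 features tested.

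HM-1 NT gave values below 0 against HM-1 and B6NT. In HM-1 NT minus B6NT the arrays read -2.19, -1.56, -1.52 and -1.28, with a fitted value of -1.64 ± 0.25 and 1.04% of features called. In HM-1 NT minus HM-1 they read -1.27, -1.64, -1.08 and -0.31, with a fitted value of -1.08 ± 0.25, where 0.254% of features were called. Array 4 was the closest to 0 of all arrays in the comparisons past the threshold, and the call was lost without array 1 (-1.03), array 2 (-0.90) or array 3 (-1.06). The pair of lines named HM-1 and the pair named B6 thus had opposite signs for the line with NT in its name. In #4 (B6) minus HM-1 the arrays read -1.32, -1.73, -0.80 and -1.30, with a fitted value of -1.29 ± 0.25 and 0.219% of features called. That call was lost without array 1 (-1.30) or array 2 (-1.15).

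In #4 (B6) minus HM-1 and HM-1 NT minus HM-1, where the dye labels are in doubt over all features, the turned Lefty2 values were below 0 on all 8 arrays. Since Lefty2 was chosen by these ratios, that sign does not bear on the doubt. With the ratios left as deposited, Lefty2 came to -0.24 and -0.38 in these comparisons and passed in none of the 13, since the dye orientations then cancel.

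The remaining comparisons held values near 0. B6NT minus HM-1 read 0.24, 0.33, -0.16 and 0.12, and B6PGA minus HM-1 read 0.51, 0.09, 0.03 and -0.21, with fitted values of 0.13 and 0.11. ZFCUMNT minus #4 (B6) had -0.19 ± 0.25 (arrays -0.59, -0.62, 0.54 and -0.10), and ZFCUMNT minus HM-1 NT had -0.42 ± 0.25 (arrays -0.22, -1.69, 0.64 and -0.40). Both signs occurred among the 4 arrays in each of these comparisons. None of the 4 genes passed in these 4 comparisons, where 0.17%, 0.494%, 0.935% and 0.292% of features were called, in the order given.

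**Figure D1:**
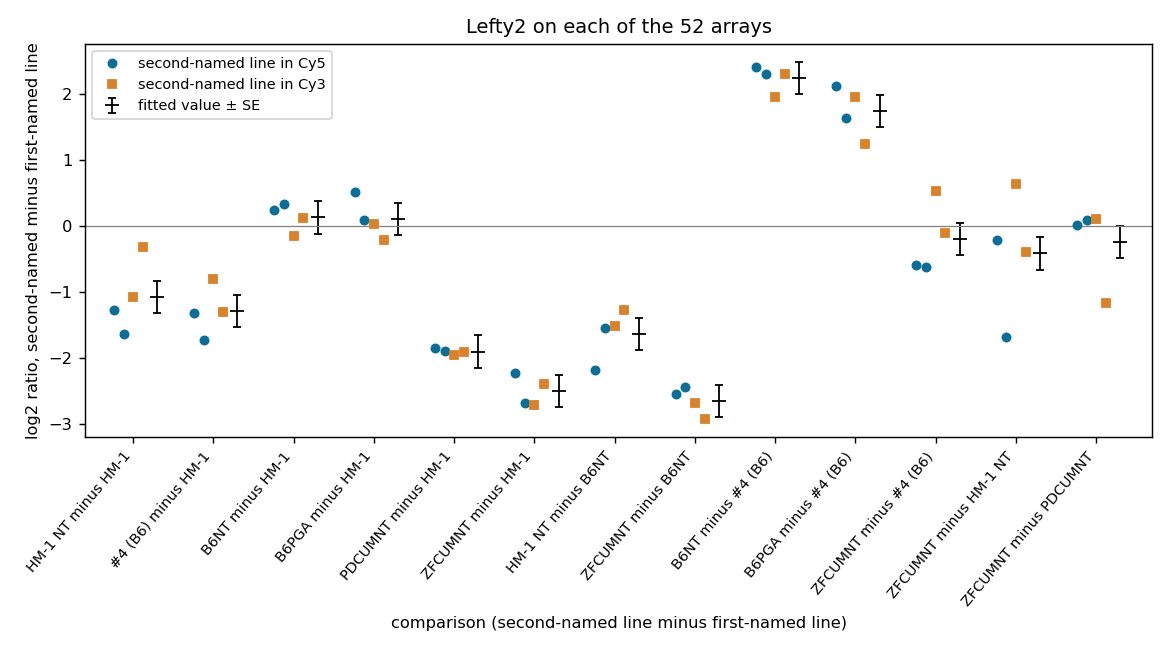
Lefty2 log2 ratio (y axis, second-named minus first-named line) on each array of the 13 comparisons (x axis), with circles for arrays that carry the second-named line in Cy5, squares for Cy3 and a cross for the fitted value ± SE. The 6 comparisons with fitted values below -1 and the 2 above 1.7 have all 4 arrays on one side of 0.

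Across the 13 comparisons Lefty2 passed in 8, with 6 negative and 2 positive values, and in the same 8 all 4 arrays had one sign. All 8 calls were lost when each comparison was fitted alone, with the same fitted values, and that of HM-1 NT minus HM-1 was lost without the dye term. Over all comparisons and features 0.532% of tests passed, 0.225% with a negative and 0.307% with a positive value, and 15.7% had all measured arrays of one sign. On those 32 arrays the sizes ran from 0.31 to 2.93. Of 11291 features tested in all 13 comparisons, Lefty2 was the only one past the threshold in 8 or more. The next, the histone H4 gene H4c8 and 2 unnamed probes, passed in 6. The residual SD of Lefty2 around the fit was 0.45, against a median of 0.90 over features. The dye term was -0.05 ± 0.07. These counts describe the values by which Lefty2 was picked.

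A model with 1 level per line put the Lefty2 values in order. Levels are log2 values relative to the mean of the 7 lines. B6NT was at 1.32 ± 0.12, B6PGA at 1.02 ± 0.17 and HM-1 at 0.93 ± 0.09. HM-1 NT was at -0.40 ± 0.14, #4 (B6) at -0.75 ± 0.12, PDCUMNT at -0.95 ± 0.17 and ZFCUMNT at -1.17 ± 0.10. The lines thus formed 3 high and 4 low ones under the Cy5 over Cy3 reading, and the step between them, HM-1 minus HM-1 NT, was 1.34 ± 0.17. Among neighbours in this order that was the only step beyond 2 SE. The other 5 steps were 0.08 to 0.34, so the order within the high lines and within the low lines was not resolved between neighbours. In this fit, some lines further apart in the order differed by more than 2 SE. B6NT minus HM-1 was 0.39 ± 0.16 and #4 (B6) minus ZFCUMNT 0.43 ± 0.17. HM-1 NT minus PDCUMNT was 0.55 ± 0.24 and HM-1 NT minus ZFCUMNT 0.77 ± 0.17. The direct values were smaller in size, at 0.13 ± 0.25 in B6NT minus HM-1 and -0.19 ± 0.25 in ZFCUMNT minus #4 (B6). ZFCUMNT minus HM-1 NT had -0.42 ± 0.25, and HM-1 NT and PDCUMNT were not compared directly. None of these direct values passed, and the line fit counts such gaps as spread between arrays. These smaller differences between lines are therefore not settled. The NT suffix did not follow the split: B6NT was among the high lines, and HM-1 NT, PDCUMNT and ZFCUMNT among the low ones. Without HM-1 NT minus HM-1 and #4 (B6) minus HM-1, the 2 comparisons with doubtful orientation, the step was 1.60, the largest value found. Without ZFCUMNT minus HM-1 NT, the third comparison remarked on above, the step was 1.16, the smallest. Over all ways of leaving out comparisons, centring arrays or dropping the dye term it was 1.16 to 1.60. In whole-culture RNA, fewer cells that express a gene and less RNA per cell cannot be told apart.

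**Figure D2:**
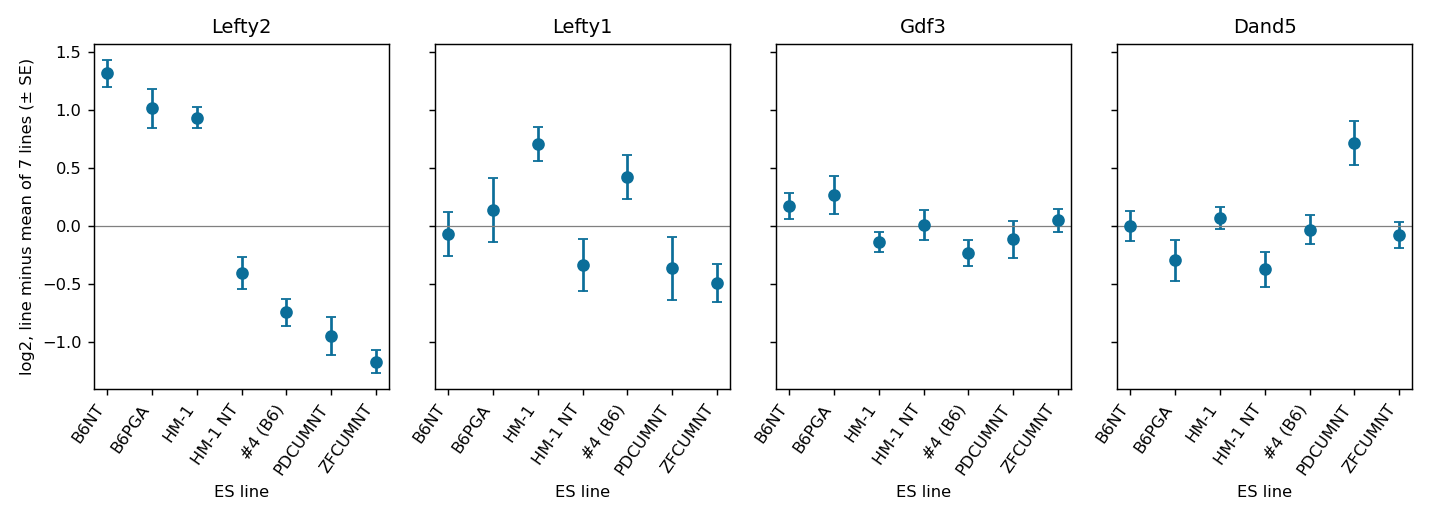
Fitted level of Lefty2, Lefty1, Gdf3 and Dand5 in each ES line (x axis, same line order in all panels), as log2 minus the mean of the 7 lines (y axis), with points for the fitted level and bars for the SE. Lefty2 falls into 3 lines at 0.93 to 1.32 and 4 lines at -1.17 to -0.40, while the Gdf3 points lie within -0.24 to 0.27.

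Each direct Lefty2 value was also set beside the value predicted for the same lines from the other 12 comparisons. In PDCUMNT minus HM-1 the direct value was -1.91 and the prediction -1.86, and in B6PGA minus #4 (B6) they were 1.74 and 1.80. The direct and indirect routes thus differed there by less than 0.25, the SE of the direct value, which leaves out the error of the prediction. PDCUMNT was in 2 comparisons only, so its prediction runs through ZFCUMNT minus PDCUMNT. Array 4 of that comparison read -1.17, against 0.02 to 0.11 on the others, and the prediction without it was not computed. B6PGA was also in 2 comparisons only, so its prediction runs through B6PGA minus HM-1. The rest of that route includes #4 (B6) minus HM-1, whose dye labels are in doubt. In B6NT minus #4 (B6) the direct value was 2.25 and the prediction 1.92, a gap wider than the SE of the direct value. The differences between direct and predicted values were widest in ZFCUMNT minus HM-1 NT (-0.42 direct, -1.05 predicted), in #4 (B6) minus HM-1 (-1.29 and -1.91) and in ZFCUMNT minus HM-1 (-2.51 and -1.91). Over the 13 comparisons the difference ran from -0.60 to 0.64, with a median size of 0.32. For fitted values from -2.65 to 2.25, then, a single comparison of 4 arrays and the rest of the network differed by at most 0.64. Direct and predicted values share lines, though not arrays.

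**Figure D3:**
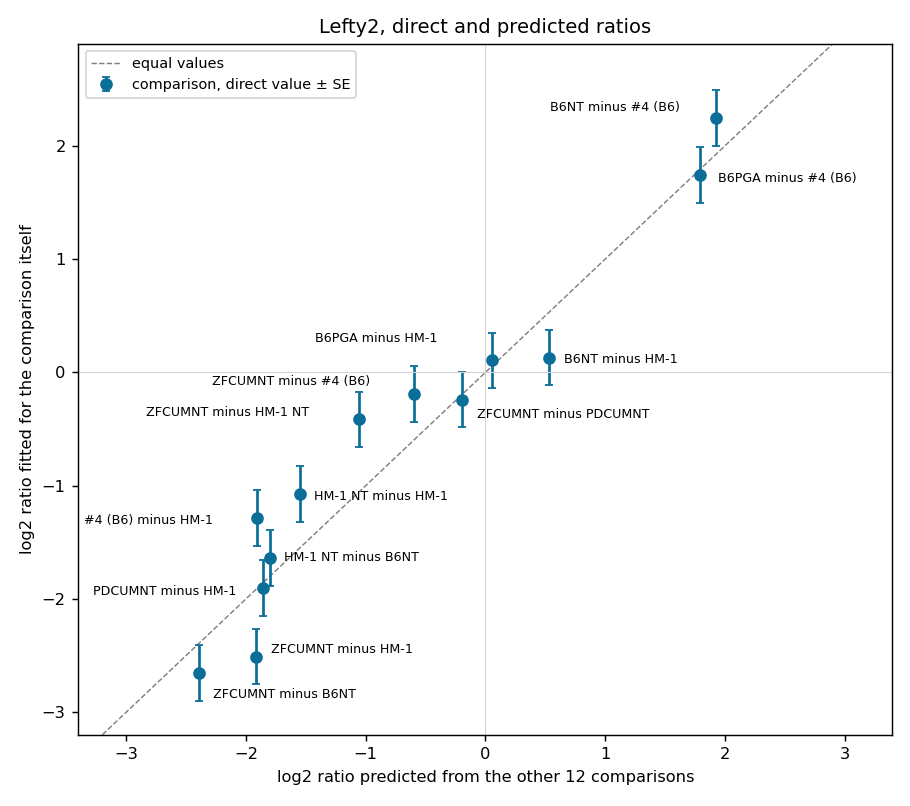
Lefty2 log2 ratio fitted for each comparison itself (y axis, bars are SE) against the ratio predicted from the other 12 comparisons (x axis), 1 point per comparison, with a dashed line of equal values. The points lie within 0.64 log2 units of the line, from ZFCUMNT minus B6NT at the lower left to B6NT minus #4 (B6) at the upper right.

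Lefty1 (Entrez gene 13590) is on chromosome 1, as is Lefty2. The Lefty genes are close paralogues in sequence, and the share of signal that a cDNA probe of one takes from the other was not tested. Probe 29 of Lefty1 measured all 52 arrays with a residual SD of 0.62. Probe 1768 measured 49 arrays with a residual SD of 1.47, against a median of 0.95 over all probes, and single arrays ran from -4.68 to 2.44. The probes are therefore described apart.

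On probe 29 the 3 lowest fitted values were those of PDCUMNT, ZFCUMNT and B6PGA against HM-1. In PDCUMNT minus HM-1 its arrays read -1.47, -2.16, -0.14 and -1.30, with a fitted value of -1.27, and in ZFCUMNT minus HM-1 they read -0.64, -1.24, -1.31 and -1.41, with -1.15. In B6PGA minus HM-1 they read -0.81, -0.62, -1.58 and -0.79, with -0.95, and in HM-1 NT minus HM-1 -0.98, -1.11, -0.81 and -0.16, with -0.77. All 16 of these arrays were below 0. ZFCUMNT minus #4 (B6), at -0.86, had arrays on both sides of 0 (-1.17, -1.67, 0.05 and -0.65). The PDCUMNT minus HM-1 value was past the threshold when probes were tested singly, and no Lefty1 value was in the fit of averaged probes. With array weights the averaged value in HM-1 NT minus HM-1, -1.32, passed.

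The Lefty genes parted in the comparisons against #4 (B6). In B6NT minus #4 (B6), where Lefty2 had 2.25, probe 29 of Lefty1 read 0.06, -0.27, -0.76 and -0.60, with a fitted value of -0.39. In B6PGA minus #4 (B6), where Lefty2 had 1.74, it read -0.19, 0.13, 0.25 and 0.42, with 0.15. No array of this Lefty1 probe reached the lowest Lefty2 array in either comparison. In ZFCUMNT minus B6NT, where Lefty2 had its lowest value, probe 29 read 0.74, 1.26, 0.14 and -0.30, with 0.46, its highest fitted value. The Lefty1 probes disagreed there: probe 1768 had -1.85 ± 0.71, its lowest fitted value, with the sign of Lefty2. The average of both probes was -0.69 ± 0.44. The difference between the genes was not tested, since Lefty2 was picked for these values.

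On probe 1768 the 12 fitted values ran from -1.85 to -0.03, with an SE of 0.71 for 4 arrays. Its arrays in ZFCUMNT minus B6NT ran from -4.22 to 0.43 and in ZFCUMNT minus HM-1 NT from -4.68 to 2.44. It was narrow in B6PGA minus HM-1, at -0.65 to -0.31, where probe 29 was also below 0 on every array. In ZFCUMNT minus #4 (B6) it was measured on 2 arrays only and was not fitted. Averaged over both probes, the 13 fitted values of Lefty1 were all negative, from -1.30 to -0.12 with an SE of 0.44, and 6 comparisons had all arrays of one sign. The line levels of Lefty1 ran from 0.71 ± 0.15 in HM-1 and 0.42 ± 0.19 in #4 (B6) to -0.49 ± 0.17 in ZFCUMNT. No step between neighbouring lines was beyond 2 SE. Lines further apart differed by more, as in HM-1 minus ZFCUMNT (1.20 ± 0.24) and HM-1 minus HM-1 NT (1.05 ± 0.28). HM-1 minus B6PGA, 0.57 ± 0.32, stayed within 2 SE. The range of 1.20 ranked 1074 of 11291 features, where that of Lefty2, 2.49, ranked 20. Direct values of Lefty1 and those predicted from the other comparisons differed by -0.54 to 0.66. In ZFCUMNT minus HM-1 they were -0.75 and -1.41.

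Dand5 (Entrez gene 23863, chromosome 8) was measured by probe 14186 on 50 arrays. In ZFCUMNT minus PDCUMNT its arrays read -1.80, -1.02, -0.02 and -1.57, and the fitted value was -1.10 ± 0.27 (SE, n = 4), past the threshold, where 0.763% of features were called. All 4 arrays were below 0, but array 3 was close to it, and the median of all features there was 0.11. The call was lost without array 1 (-0.82), array 2 (-1.09) or array 4 (-0.98) and under 8 of the other settings tried. In the other 12 comparisons the fitted values of Dand5 ran from -0.44 to 0.46 and none passed. In PDCUMNT minus HM-1, measured on 3 arrays from -0.26 to 0.74, it had 0.24 ± 0.32. The prediction for PDCUMNT minus HM-1 from the other comparisons was 1.07, so the PDCUMNT level rests on comparisons that differed by 0.83.

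As line levels, PDCUMNT stood at 0.72 ± 0.19 and the other 6 lines between -0.37 (HM-1 NT, ± 0.15) and 0.07 (HM-1). The step of PDCUMNT minus HM-1, 0.65 ± 0.23, was the only one between neighbours beyond 2 SE. HM-1 minus HM-1 NT, which are not neighbours, was 0.44 ± 0.19. The range over lines was 1.09. The order of Dand5 levels differed from that of Lefty2: PDCUMNT was the highest line for Dand5 and among the low lines for Lefty2.

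Gdf3 (Entrez gene 14562, chromosome 6) was measured by probe 3752 on all 52 arrays and had the lowest residual SD of the 4 genes, 0.43. None of its 13 fitted values, -0.17 to 0.80, passed the threshold. The largest were those against #4 (B6). In B6PGA minus #4 (B6) the arrays read 0.47, 0.62, 1.02 and 1.08, with a fitted value of 0.80 ± 0.24 (n = 4), and in B6NT minus #4 (B6) they read 0.67, 0.53, 0.81 and 0.15, with 0.54 ± 0.24. These 8 arrays were all above 0, in the comparisons where Lefty2 was at 1.74 and 2.25. In B6NT minus HM-1 they read 0.41, 0.58, 0.03 and 0.28, with 0.33, and in ZFCUMNT minus PDCUMNT the fitted value was 0.46 with arrays from -0.11 to 1.40. Against the widest Lefty2 ratio, -2.65 in ZFCUMNT minus B6NT, Gdf3 had -0.12 ± 0.24, and in ZFCUMNT minus HM-1, with -2.51 for Lefty2, it had 0.10. Its levels over lines spanned 0.50 ± 0.19 log2 units, from 0.27 ± 0.16 in B6PGA to -0.24 ± 0.11 in #4 (B6). No neighbouring step was beyond 2 SE, though the ends of the range were. That range ranked 7956 of 11291 features. For its ends, B6PGA minus #4 (B6), the direct value was 0.80 and the prediction from the other comparisons 0.08. Direct and predicted values of Gdf3 differed by -0.78 to 0.72, wider than the range of its levels. They correlated at -0.11 over the 13 comparisons, against 0.97 for Lefty2, so the Gdf3 levels are less well supported.

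**Figure D4:**
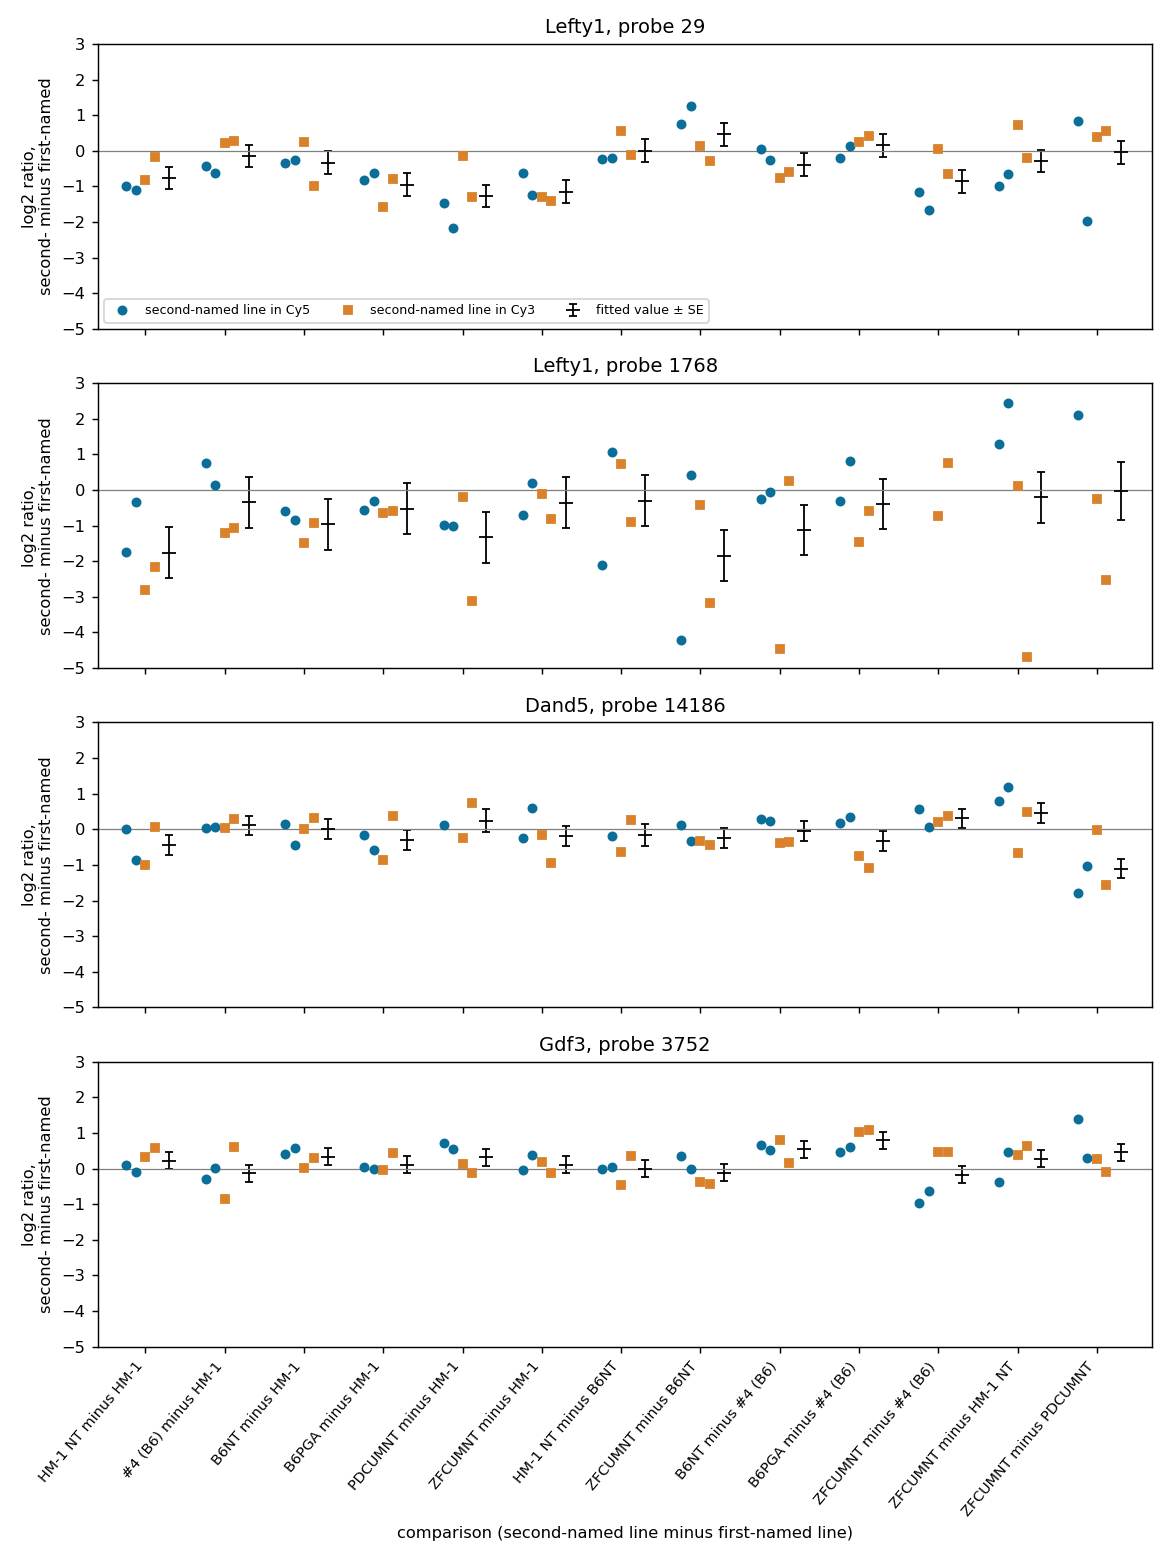
Log2 ratio (y axis, second-named minus first-named line) on each array of the 13 comparisons (x axis) for both Lefty1 probes, Dand5 and Gdf3, with circles for the second-named line in Cy5, squares for Cy3 and crosses for the fitted value ± SE. Lefty1 probe 1768 spreads from -4.68 to 2.44, while the Gdf3 arrays lie between -0.98 and 1.40.

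Over the 13 fitted values, the Pearson correlation with Lefty2 was 0.68 for Gdf3, 0.24 for Lefty1 and -0.07 for Dand5. These are descriptions over 13 points that share lines and arrays of the same hybridisations.

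Other genes of the pathway came from a list of 47 ligands, receptors, convertases, antagonists, Smad transducers, repressors and targets, of which 25 had a probe. No probe was listed for Nodal itself or for its co-receptor Tdgf1. None of the 309 gene-comparison tests passed by limma, where 0.532% of all tests did, and 15 had an unadjusted p under 0.05. The median size of their ratios was 0.26, against 0.27 over all features. The genes with probes were 5 ligands, 3 receptors, 1 convertase, 1 antagonist, 5 transducers, 8 repressors and 2 targets. At a share of 0.532% few calls would be found in 309 tests of any genes. The lack of calls is therefore not a result about these roles. The share of all features with an unadjusted p under 0.05 is not given here. Other settings called at most 5 of the 309 tests.

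The widest value on the list was that of the Smad corepressor Tgif2 in B6NT minus HM-1, 3.87 ± 0.88 over 3 arrays that ran from 0.79 to 6.90 (limma adjusted p = 0.097). Inha, the inhibin alpha subunit, had 2.12 in #4 (B6) minus HM-1, with arrays from -0.04 to 7.88. Both rested on arrays that differed by 6 or more log2 units. The transducer Smad3 had 1.23 in PDCUMNT minus HM-1 with arrays from 0.49 to 1.99 (limma adjusted p = 0.14). Fgf8, a growth factor of the gastrula and a target of the pathway, had -1.04 in B6PGA minus #4 (B6), with arrays from -1.36 to -0.78. Foxh1, the partner of the Smads at the Lefty enhancers, had fitted values from -0.73 to 0.74 over the 10 comparisons in which it was tested. Its SE was 0.75 to 0.87, and its arrays ran from -2.13 to 4.07 in HM-1 NT minus B6NT, so a steady level is not shown. The co-receptor gene Cfc1 had fitted values from -0.60 to 0.31, with an SE of 0.34 to 0.39. Those of Gdf1, a ligand that pairs with Nodal, ran from -0.38 to 0.67 with an SE of 0.29. These genes were named after their values were seen.

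**Figure D5:**
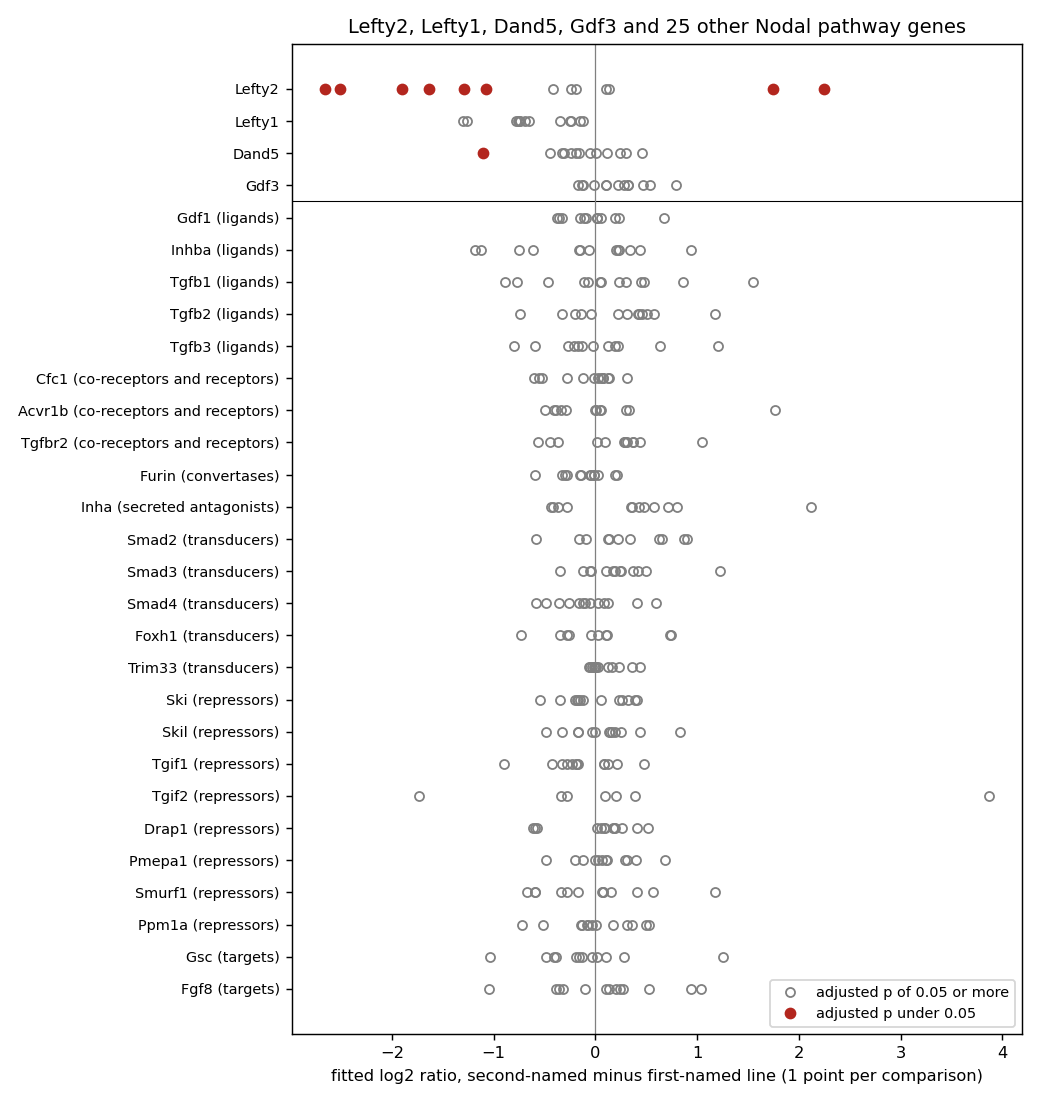
Fitted log2 ratio (x axis, second-named minus first-named line) of Lefty2, Lefty1, Dand5, Gdf3 and the 25 other pathway genes with a probe (rows), 1 point per comparison, filled where the adjusted p was under 0.05. Filled points occur for Lefty2 (8) and Dand5 (1) and for none of the 25 other genes.

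Marker lists of cell types that the cultures could hold were set beside the 8 comparisons in which Lefty2 passed. Genes of undifferentiated ES cells, 15 to 16 of 20 measured, had medians from -0.28 to 0.25, with 7 positive and 5 negative calls among 125 tests (9.6%, against 0.532% over all features and comparisons). Klf4, a pluripotency factor, and Dppa5a, an RNA-binding protein of ES cells, were called with the sign of Lefty2 in all 3 of these comparisons that included #4 (B6). Klf4 had 1.01 ± 0.18 in B6NT minus #4 (B6), 1.81 ± 0.18 in B6PGA minus #4 (B6) and -0.82 ± 0.18 in #4 (B6) minus HM-1. Dppa5a had 2.12 ± 0.20, 1.81 ± 0.20 and -1.41 ± 0.20 in the same order. Dppa5a was also called in ZFCUMNT minus #4 (B6), at 2.04 ± 0.20, where Lefty2 had -0.19. In the 5 comparisons where Lefty2 did not pass, ES markers had 1 positive call and 2 negative calls among 77 tests (3.9%).

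Zfp42, a zinc finger gene of undifferentiated cells, was negative like Lefty2 in #4 (B6) minus HM-1 (-2.85 ± 0.41), PDCUMNT minus HM-1 (-2.53 ± 0.41) and ZFCUMNT minus HM-1 (-2.44 ± 0.41). It was positive in HM-1 NT minus B6NT (2.24 ± 0.41), where Lefty2 was negative, and was called in B6NT minus HM-1 (-2.90 ± 0.41) and B6PGA minus HM-1 (-2.14 ± 0.41), where Lefty2 was near 0. The other ES markers called had the opposite sign to Lefty2: the germline and pluripotency gene Dppa3 in HM-1 NT minus HM-1 (2.18 ± 0.35) and the pluripotency factor Pou5f1 in PDCUMNT minus HM-1 (0.87 ± 0.22). These called markers were named after their values were seen, and the part of ES cell state in the Lefty2 values was not tested. Marker signs in #4 (B6) minus HM-1 and HM-1 NT minus HM-1 carry the doubt about the dye labels given above.

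Primitive and visceral endoderm markers (9 to 13 of 17) had medians from -0.14 to 0.19 with no call among 85 tests. Over all features and comparisons 0.532% of tests passed, so no call in a set of this size says little about these genes. Where Lefty2 did not pass, endoderm markers had 3 positive calls among 57 tests (5.26%). Trophectoderm markers (4 to 6 of 11) had medians from -0.22 to 0.42. They had 2 positive calls among 45 tests (4.44%, against 0.532% over all features and comparisons). These were the keratin gene Krt8 in HM-1 NT minus B6NT (2.27 ± 0.43) and the transcription factor gene Cdx2 in B6PGA minus #4 (B6) (1.13 ± 0.28). Where Lefty2 did not pass, trophectoderm markers had no call among 28 tests.

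Fibroblast and feeder markers had wider medians in some of these comparisons. Their median was 0.37 in HM-1 NT minus HM-1 (15 of 20 values positive), 0.49 in #4 (B6) minus HM-1 (14 of 19), 0.44 in HM-1 NT minus B6NT (16 of 19) and 0.33 in ZFCUMNT minus B6NT (16 of 18). It was -0.20 in B6NT minus #4 (B6) (3 of 18) and 0.18 in B6PGA minus #4 (B6) (10 of 18). In 5 of these 6 comparisons the fibroblast median had the opposite sign to Lefty2. These include HM-1 NT minus HM-1 and #4 (B6) minus HM-1, whose dye labels are in doubt. It was -0.03 and 0.02 in PDCUMNT minus HM-1 and ZFCUMNT minus HM-1, where Lefty2 had -1.91 and -2.51. The widest fibroblast median, 0.96 with 8 of 20 markers called, was in B6PGA minus HM-1, where Lefty2 had 0.11 and 0.494% of all features were called. Where Lefty2 passed, 5 of 152 fibroblast tests were called (3.29%, against 0.532% over all features and comparisons). They were Vim in #4 (B6) minus HM-1 (1.04 ± 0.21), Col1a2 in HM-1 NT minus B6NT (1.12 ± 0.26), Col1a1 (-1.32 ± 0.24) and Timp3 (-1.15 ± 0.19) in B6NT minus #4 (B6), and Lox in B6PGA minus #4 (B6) (0.79 ± 0.20). In the 5 comparisons where Lefty2 did not pass, fibroblast markers had 8 positive calls and 1 negative call among 98 tests (9.18%). The part of feeder RNA in the Lefty2 values was not tested in any comparison.

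Among 6451 genes tested in all 13 comparisons, those whose fitted values ran most like Lefty2 were Mesp2 (Pearson r = 0.92 over 13 comparisons), Rpl39 (0.88) and Ergic2 (0.87). Mesp2, a transcription factor of somite formation, ran only from -0.83 to 0.82 and passed in no comparison. The ribosomal protein gene Rpl39 ran from -0.57 to 0.97 and passed in 4. Lefty2 itself spanned -2.65 to 2.25, so none of these followed it in size. For Lefty1 the closest were Slc35f6 (0.85), Alpk3 (0.82) and Atg10 (0.82), for Dand5 Ighmbp2, Ccdc184 and Sap30bp (all 0.84), and for Gdf3 Pim1 (0.86), Spata21 (0.86) and Bspry (0.82). With 13 points and 6451 genes searched, 4 to 15 genes per member had a correlation above 0.8.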

How the data were processed

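The authors' deposited table gives 1 ratio per probe and array, read here as a log2 ratio of both channels; per the labels' protocols, 20 microgram of total RNA was labelled indirectly with Cy3 or Cy5. The protocol text also mentions thawed organs and a pooled reference, but the labels of either channel name ES lines, and these were used. Scanner, background correction, normalization, log base and numerator dye are not given in the sources used here. A constant top value on each array (20 to 174 probes) was treated as missing, as decided after seeing the data.

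Ratios were turned by the dye labels, probes of one symbol were averaged (17053 features), and limma 3.58.1 in R 4.3.3 was fitted to all 52 arrays with 13 comparison coefficients and a dye term, then eBayes. A feature was tested with at least 3 of 4 arrays in both orientations (15067 to 16493 features per comparison), and the number of arrays limits the precision. A second fit had 6 line coefficients. The fits were tested on simulated data. Deposited values were not centred further. No 2 arrays correlated above 0.46, so none was counted as a copy. The members and all lists were chosen with earlier results of these data known. Named are the members, pathway genes called, and the 3 genes most correlated with each member; other pathway genes were named after their values were seen. Gene names and chromosomes come from the platform annotation and RefSeq (GRCm38.p6); no build is named for the probes, hence no coordinates. Alternatives were probes tested singly, other centring, scaling, weights, array minimums and priors, no dye term, a replicate block, comparisons fitted alone, unturned ratios, top values kept, and each array or comparison left out.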

Additional observations from a re-analysis of the deposited data

Results flagged for a closer look

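Of 61 sets of 4 arrays of a member's probe, 5 had 1 array far from the other 3 by Dixon's test, where chance gives about 1 in 20. Lefty2 in ZFCUMNT minus PDCUMNT had -1.174 on array 4, while the other 3 arrays lay between 0.015 and 0.111. Lefty1 probe 29 had -1.959 on array 2 of the same comparison, with the others at 0.379 to 0.845, and 0.555 on array 3 of HM-1 NT minus B6NT, with the others at -0.232 to -0.123. Lefty1 probe 1768 had -4.465 on array 3 of B6NT minus #4 (B6), with the others at -0.248 to 0.265. Dand5 had 0.301 on array 4 of #4 (B6) minus HM-1, with the others at 0.032 to 0.072, so the far value there is itself small.

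Lefty2 moved in opposite directions where a line with NT in its name was compared with the line of the like name. The value of HM-1 NT minus HM-1 less that of B6NT minus #4 (B6) was -3.32 on the log2 scale, with all 4 arrays of the first comparison below 0 and all 4 of the second above 0. The difference was not tested, and the labels do not say that these pairs share a parent line.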

How the results depend on the processing

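Members passed the threshold in 9 tests (Lefty2 in 8, Dand5 in 1), in 7 to 9 under the alternatives other than the next 2, and in 7 to 9 with an array left out. The count was 0 when each comparison was fitted alone, with the same values but few residual degrees of freedom, and 0 with ratios not turned, where Lefty2 reversed to 0.034 in PDCUMNT minus HM-1, 0.049 in ZFCUMNT minus HM-1 and 0.16 in ZFCUMNT minus B6NT. With array weights and with probes tested singly Dand5 no longer passed and a Lefty1 value did, at -1.32 in HM-1 NT minus HM-1 with weights and on probe 29 in PDCUMNT minus HM-1 (-1.27) singly. Without the dye term Lefty2 in HM-1 NT minus HM-1 and Dand5 no longer passed. Array numbers did not pair the arrays beyond dye orientation: deviations correlated at 0.10 for the same number and for the other number of that orientation, and 24 of 52 arrays correlated best with their own number. With a replicate block in place of the dye term 8 member tests passed and 0 of the pathway list. For that list, none passed in the report's fit, and the count was 1 with probes tested singly (Ppm1a), 2 with arrays scaled to equal spread (Tgif2, Ppm1a), 2 with array weights (Inha, Tgif2), 5 with ratios not turned, 1 with top values kept (Tgfb1) and 0 to 1 with an array left out (Tgfbr2). The cause was not tested. The Lefty2 line levels moved by less than the residual SD between arrays (0.45) under the alternatives run for them, but in 4 lines by more than the SE: HM-1 ran from 0.85 to 1.12, HM-1 NT from -0.55 to -0.22, #4 (B6) from -0.89 to -0.65 and ZFCUMNT from -1.28 to -1.07. Brightness and background of the spots are not given in the sources used here, so what dim signal limits was not tested.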
